A study of Mus musculus with 20 samples.

Results

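The 10 adipocyte genes Adipoq, Plin1, Cidec, Fabp4, Cfd, Retn, Lep, Scd1, Fasn and Car3 were read in the quadriceps of old mice. They were found by matching the Ensembl identifiers of the 55416 listed genes to these symbols, and all 10 had enough counts to be tested, among 14471 tested genes. The muscles came from 20 male wild-type mice of the strain C57BL/6J, aged 26 to 28 months. Each mouse, fasted for 4 h, received a single injection of 50 µL into the right quadriceps, and that muscle was taken 3 h later. The 10 control mice received saline and the 10 secretome-treated mice received the secretome, a cell-free product of medium conditioned by partially differentiated human embryonic stem cells. The question was how far the adipocyte genes varied between muscles, whether they varied together, and whether they differed between the treatments.

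White adipocytes store triglyceride in a single large droplet and secrete hormones into the blood, and in skeletal muscle they lie between the fibres and the fibre bundles. Their transcription is set largely by PPARG and by the C/EBP factors. Adipoq (adiponectin), Retn (resistin), Lep (leptin) and Cfd (adipsin, complement factor D) encode secreted proteins, Plin1 (perilipin 1) and Cidec encode proteins of the lipid droplet surface, and Fabp4 encodes a fatty acid carrier that capillary endothelium also makes. Fasn (fatty acid synthase) and Scd1 (stearoyl-CoA desaturase 1) encode enzymes of fatty acid synthesis found in many cells, and Car3 (carbonic anhydrase 3) is abundant in adipocytes and in slow muscle fibres. A lower level of such a gene in a bulk muscle may reflect fewer adipocytes or less RNA per adipocyte. For the genes that other cells also make, it may reflect those cells instead. These cannot be told apart here.

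The muscles had totals of 13286983 to 22987237 counts, and the 10 genes together took 0.0728% to 0.273% of them. The 10 myofibre genes examined summed to between 112900 and 317000 CPM (counts scaled for library size with TMM), so the defining genes of the labelled tissue were abundant. Of 10 markers of brown adipocytes, Ucp1 had 0 counts in all 20 muscles, Elovl3 in 15, Otop1 in 4 and Cidea in 2, and the other 6, which other cells also express, were detected in all 20. The share of reads on the titin gene Ttn followed the library number in the labels. It was 7.02% to 11.03% in libraries 1 to 5, 16.4% to 21.1% in libraries 6 to 15 and 14.2% to 14.7% in libraries 16 to 20. Libraries 1 to 5 were all controls and libraries 16 to 20 all secretome-treated, so in those the library range and the treatment cannot be told apart, and values within libraries 6 to 15 (5 muscles of each treatment) are given beside the others. Controls 3 and 4 (libraries 3 and 4) held the highest levels of most of the adipocyte genes. Fold changes and counts of correlated pairs of the 10 genes are given with and without them. Correlations with other genes are given without them only in part.

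Upstream sequences are shown because several of the genes varied together, and because Cebpa, which encodes C/EBP alpha, varied with some of them. RefSeq (GRCm38.p6) start sites were found for 7 of the 10 genes, with 8 windows of 250 bases before the start, since Cidec had more than 1. The counts were made on GRCm39, so no coordinate of the windows was joined to them. None was found for Fabp4, Scd1 and Car3. The C/EBP-type motif TTGCNNAA, searched on both strands, was present in 3 of the 8 windows and in 9.56% of all 32851 windows of the same length. The windows of Cfd and Retn held no match. Over the 20 muscles, Pearson's r of log2 CPM of Cebpa was 0.915 with Cfd, 0.834 with Retn and 0.874 with Plin1. Without controls 3 and 4 these were 0.866, 0.723 and 0.780. It was 0.524 with Fabp4 and -0.12 with Car3 over the 20 muscles. Cebpa was not among the 10 other genes closest to Lep or to Cidec. The 3 windows with a match belong to Lep, Plin1 and Cidec, and the matches are in capitals.
Lep, chr6:29059971-29060220, plus strand: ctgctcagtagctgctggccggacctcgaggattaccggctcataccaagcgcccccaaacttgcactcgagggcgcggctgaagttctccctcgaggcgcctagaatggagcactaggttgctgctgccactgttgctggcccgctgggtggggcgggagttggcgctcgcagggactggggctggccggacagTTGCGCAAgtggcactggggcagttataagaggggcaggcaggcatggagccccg
Plin1, chr7:79732777-79733026, minus strand: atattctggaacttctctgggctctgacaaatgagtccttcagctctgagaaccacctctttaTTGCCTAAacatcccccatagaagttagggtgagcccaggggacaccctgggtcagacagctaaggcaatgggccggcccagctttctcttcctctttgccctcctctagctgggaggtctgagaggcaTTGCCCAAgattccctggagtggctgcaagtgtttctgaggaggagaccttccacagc
Cidec, chr6:113434765-113435014, minus strand: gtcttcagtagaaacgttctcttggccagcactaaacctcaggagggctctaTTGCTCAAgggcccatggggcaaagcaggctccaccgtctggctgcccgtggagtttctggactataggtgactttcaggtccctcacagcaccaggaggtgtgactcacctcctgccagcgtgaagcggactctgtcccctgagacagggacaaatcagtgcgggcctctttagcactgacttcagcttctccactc
In the Lep window the match started 55 bases before the start site, and in the Plin1 window the matches started 187 and 58 bases before it. The Cidec match started 198 bases before the start site. The CCAAT box (CCAAT or ATTGG) was present in 2 of the 8 windows and in 33.8% of all windows. These are the windows of Adipoq and Fasn, shown with the box in capitals because these transcripts hardly varied together.
Adipoq, chr16:23146286-23146535, plus strand: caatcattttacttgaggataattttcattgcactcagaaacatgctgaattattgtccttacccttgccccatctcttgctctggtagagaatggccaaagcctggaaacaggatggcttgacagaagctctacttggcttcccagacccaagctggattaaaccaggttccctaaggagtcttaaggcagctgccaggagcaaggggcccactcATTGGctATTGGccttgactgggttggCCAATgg
Fasn, chr11:120824548-120824797, minus strand: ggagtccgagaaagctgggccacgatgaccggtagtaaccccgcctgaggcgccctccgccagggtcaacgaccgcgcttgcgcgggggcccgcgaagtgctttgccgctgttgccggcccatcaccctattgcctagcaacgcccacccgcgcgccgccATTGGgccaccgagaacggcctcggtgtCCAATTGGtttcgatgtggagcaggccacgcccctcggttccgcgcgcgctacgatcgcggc
In the Fasn window, boxes on opposite strands overlapped by 2 bases. The half-site AGGTCA (both strands) was in 0 of the 8 windows and in 4607 of all windows, and TATAAA in 0 of 8 and 12.4%. The sterol-response motif TCACNNCAC was in 1 of the 8 windows, that of Cidec, and 3.11% of all windows, and the DR1 element of PPAR in 0 of 8 and 0.0335%. A match of letters is not shown to be a bound site, and the motifs were chosen with the results known.

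Levels differed by orders of magnitude between the genes, and neighbours in the order were often not separable. The length used was that of all annotated exons of a gene together, such as 4489 bases for Fabp4 and 922 for Cfd. It may exceed that of the transcript in use, so the order depends on it. Per kilobase of exon, Car3 was highest, with 310.3 ± 94.5 CPM per kb (mean ± SD, n = 20), and was above the second gene, Cfd, in all 20 muscles. Cfd, with 53.4 ± 35.2 CPM per kb, and Scd1, with 49.8 ± 29.6 CPM per kb, did not differ beyond their spread, since Cfd was the higher of the pair in 10 of 20 muscles. At these lengths Fabp4 (12.2 ± 4.65 CPM per kb) and Fasn (12.02 ± 5.33 CPM per kb) were likewise not separable, with Fabp4 higher in 10 of 20 muscles. Adipoq (6.50 ± 5.16), Cidec (5.15 ± 4.15), Retn (3.19 ± 2.42) and Plin1 (2.41 ± 1.63 CPM per kb) followed. Of these, Adipoq and Cidec, and Retn and Plin1, differed by less than 1 SD of their log2 difference. Lep was lowest, with 0.649 ± 0.632 CPM per kb, and was below Plin1 in all 20 muscles.

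The adipocyte genes differed widely between muscles, most of all Lep. The SD of log2 CPM over the 20 muscles lay above the median of tested genes, 0.34, for all 10. It was 1.342 for Lep, the 99.5th percentile of tested genes, between 0.73 and 0.86 for Adipoq, Plin1, Cidec, Cfd, Retn and Scd1, and 0.61, 0.53 and 0.43 for Fasn, Car3 and Fabp4. The coefficient of variation (CV) over the 20 muscles ran from 30.5% for Car3 to 97.3% for Lep, while the CV that counting alone gives at the mean count ran from 0.790% for Car3 to 15.99% for Lep. The counts of Lep lay between 3 and 157 per muscle, so its lowest values are the least exact. For all 10 genes the CV was larger among the controls than among the secretome-treated muscles, and without controls 3 and 4 this held for 5 of 10, with no test of the difference. The share of all tested genes with a larger CV among the controls was not computed. The larger spread among the controls is thus not shown to be particular to the 10.

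Of the secreted factors, Adipoq ranged from 4.86 through a median of 7.52 to 35.9 CPM in controls and from 2.88 through 6.08 to 15.9 CPM in secretome-treated muscle. Control 4 was highest, secretome-treated muscle 10 second and control 3 the third, at 13.6 CPM, and the groups overlapped. Cfd ranged from 33.5 through 42.5 to 152 CPM in controls and from 16.6 through 34.5 to 50.7 CPM after secretome. Controls 4, 3, 9 and 6, at 152, 116, 84.4 and 53.5 CPM, lay above every secretome-treated muscle, secretome-treated muscle 2 was lowest, and 5 secretome-treated muscles lay below the lowest control, while the others overlapped. Those 5 were the secretome-treated muscles of libraries 6 to 15, and those of libraries 16 to 20 all lay above the lowest control. Retn ranged from 2.95 through 4.12 to 16.4 CPM in controls and from 2.13 through 3.14 to 5.44 CPM after secretome. As for Cfd, controls 3, 4 and 9 were the highest muscles, here at 16.4, 14.5 and 8.49 CPM, and 4 secretome-treated muscles lay below the lowest control. Lep ranged from 0.214 through 1.53 to 9.16 CPM in controls and from 0.161 through 1.71 to 5.10 CPM after secretome. Its median was slightly higher after secretome, the groups overlapped throughout, and control 4 and secretome-treated muscle 10 were highest.

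Of the lipid droplet proteins and the fatty acid carrier, Plin1 ranged from 5.39 through 11.4 to 35.4 CPM in controls and from 3.28 through 8.50 to 15.7 CPM after secretome. Cidec ranged from 3.54 through 8.30 to 38.3 CPM in controls and from 2.53 through 7.03 to 13.8 CPM after secretome. Both genes were highest in control 4, then control 3, then secretome-treated muscle 10, and lowest in secretome-treated muscle 2. Fabp4 ranged from 36.8 through 52.5 to 134 CPM in controls and from 31.9 through 49.8 to 68.7 CPM after secretome. Control 4 stood alone for this gene, since control 3, at 55.1 CPM, lay within the range of the other muscles.

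**Figure D1:**
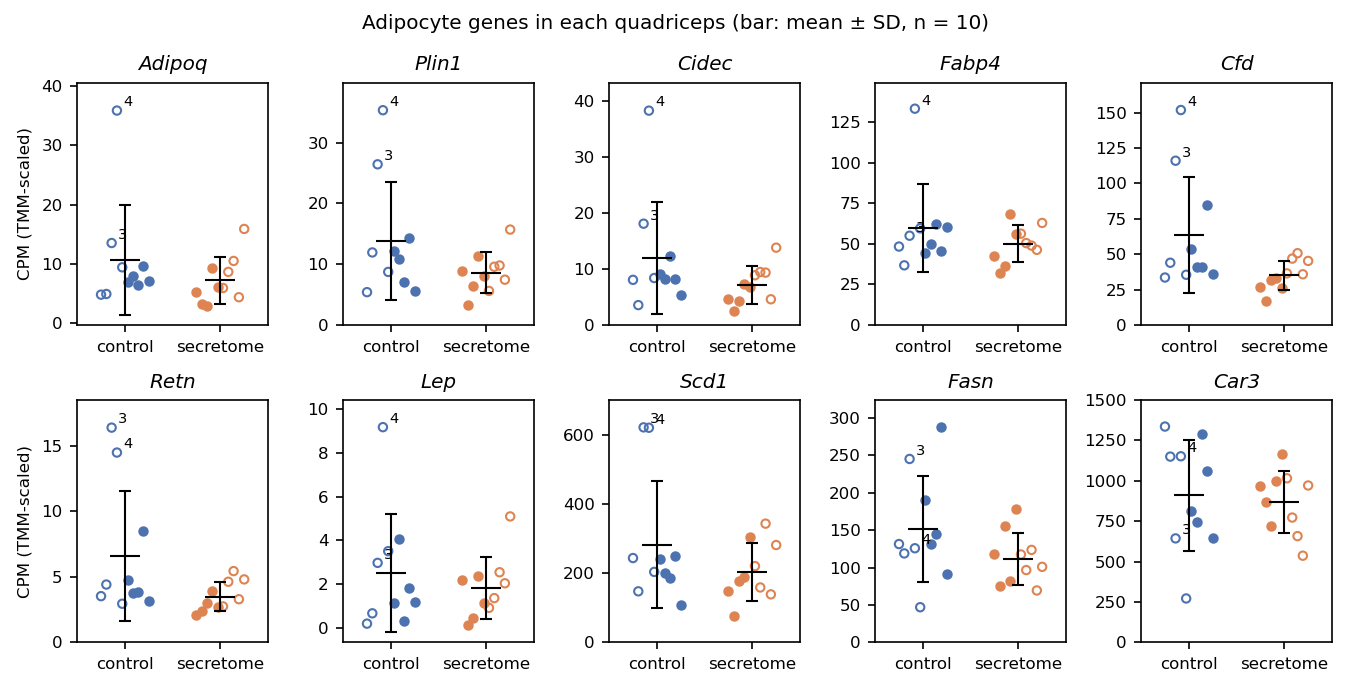
TMM-scaled CPM (vertical axis, from 0 except where the SD bar runs below it, and on a different scale for each gene) of the 10 genes in each muscle, by treatment (horizontal axis). Each point is a muscle, filled for libraries 6 to 15 and open for the others, controls 3 and 4 carry their numbers, and the bars are mean ± SD (n = 10). The groups overlap for all 10 genes, and control 4 is the highest muscle for 6 of them.

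Of the enzymes, Scd1 ranged from 108 through 223 to 623 CPM in controls and from 77.7 through 184 to 344 CPM after secretome. Controls 3 and 4 were nearly equal, at 623 and 622 CPM, and the third muscle, secretome-treated muscle 8, was at 344 CPM. Fasn ranged from 47.0 through 131 to 288 CPM in controls and from 69.4 through 109 to 178 CPM after secretome. Its order was another one: control 9 was highest, control 4, at 126 CPM, ranked 9th of 20, and control 5 was lowest. Car3 ranged from 272 through 935 to 1336 CPM in controls and from 537 through 918 to 1167 CPM after secretome. Control 1 was highest and control 5, at 272 CPM, lowest, so the muscles that stood out for Adipoq did not stand out for Car3.

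**Figure D2:**
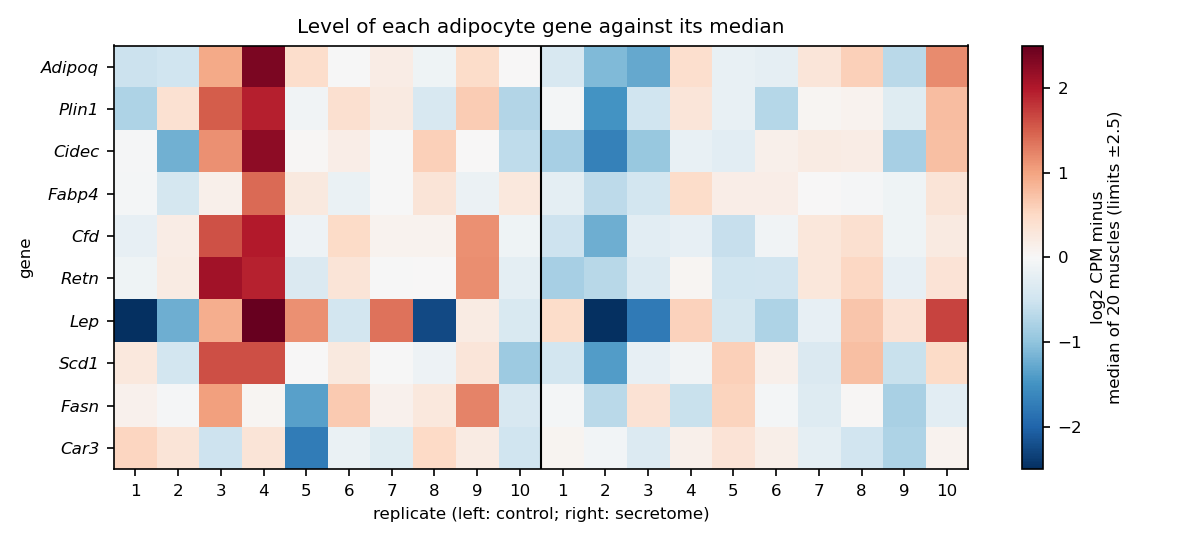
Log2 CPM of each gene (rows) in each muscle (columns, numbered by replicate, controls left of the line and secretome-treated muscles right of it), minus the median of that gene over the 20 muscles, with the colour limited at ±2.5. In the upper 8 rows controls 3 and 4 are above the median and secretome-treated muscle 2 is below it, and the rows of Fasn and Car3 follow another pattern, with control 5 lowest in both.

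Most of the adipocyte genes varied together from muscle to muscle, while Fasn and Car3 did so with few of the others. Of the 45 pairs of genes, 31 had a positive correlation of log2 CPM over the 20 muscles past an adjusted p of 0.05 (two-sided permutation test of Pearson's r with 100000 resamples, Benjamini-Hochberg adjustment over the 45 pairs), and no pair was negatively correlated past it. Among the 8 genes other than Fasn and Car3, a grouping made after the correlations were seen, 27 of 28 pairs passed, with r from 0.493 to 0.954 and a median of 0.770. With Spearman's rho, 20 of the 45 pairs and 19 of those 28 passed. The muscles were sequenced as 1 library each, so the genes of a pair share its depth and scaling.

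Cfd and Retn were the closest pair, with r = 0.954 (adjusted p = 9e-05, from an unadjusted p of 1e-05, the smallest that the resamples can give) and rho = 0.905 (adjusted p = 0.000675). Without the 2 muscles farthest from the median of Cfd, r was 0.905, and within libraries 6 to 15 it was 0.926 (adjusted p = 0.00675). Adipoq and Cidec followed, with r = 0.884 (adjusted p = 9e-05) and rho = 0.795 (adjusted p = 0.000675), and r was 0.800 without the 2 muscles farthest for Adipoq and 0.734 within libraries 6 to 15 (adjusted p = 0.0764). Both pairs also held within each treatment, with r of 0.980 and 0.862 among the controls and 0.840 and 0.898 among the secretome-treated muscles.

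Adipoq and Fabp4 had r = 0.832 (adjusted p = 0.000173) and rho = 0.651 (adjusted p = 0.00874), and r = 0.626 without the 2 muscles farthest for Adipoq and 0.735 within libraries 6 to 15. The correlation of Fabp4 with the complement factor Cfd rested on a few muscles: r was 0.572 (adjusted p = 0.0223) and rho 0.248 (adjusted p = 0.381), and without the 2 muscles farthest for Fabp4 r was -0.02. Fabp4 and Retn, the pair of the 8 genes that did not pass, had r = 0.493 (adjusted p = 0.0531).

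Fasn passed with 4 of its 9 partners, Scd1, Retn, Car3 and Cfd, at r = 0.510, 0.503, 0.495 and 0.489, and its r with Adipoq was 0.118 (adjusted p = 0.740, rho = 0.110 with adjusted p = 0.726). Of these 4 pairs, only Fasn and Scd1, both of fatty acid synthesis, also passed by rho, at 0.577 (adjusted p = 0.0247), and its r was 0.773 within libraries 6 to 15 (adjusted p = 0.0764). Car3 passed only with Fasn, and without the 2 muscles farthest for Fasn their r was 0.144. Without control 5 no r of Car3 with another member was above 0.247, so the relation rests on few muscles. Without controls 3 and 4 the r of Fasn with Car3 was 0.623 (adjusted p = 0.0299, permutation test). The r of Car3 with Adipoq was 0.00175 and that with Lep was -0.32 (adjusted p = 0.226).

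**Figure D3:**
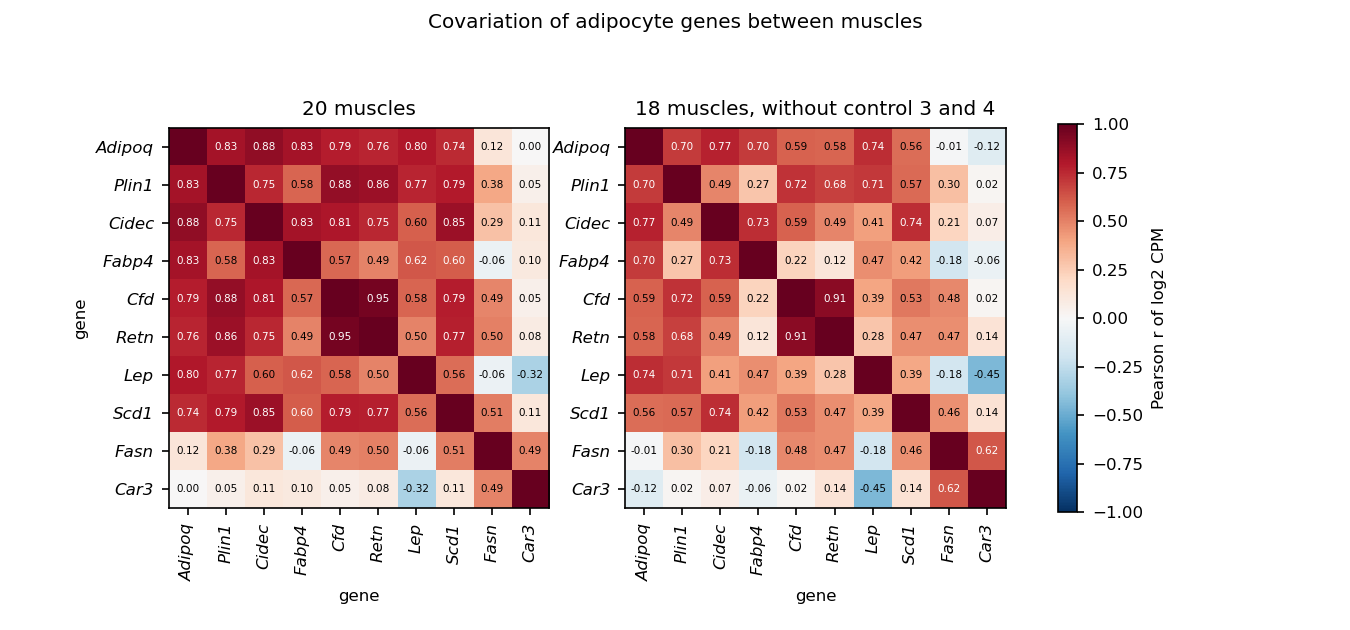
Pearson's r of log2 CPM for each pair of genes, printed in each cell, over the 20 muscles (left) and over the 18 muscles without controls 3 and 4 (right). The cells among the 8 genes other than Fasn and Car3 run from 0.493 to 0.954 on the left, and each of them is lower on the right, where 16 of the 45 pairs passed in place of 31.

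**Figure D4:**
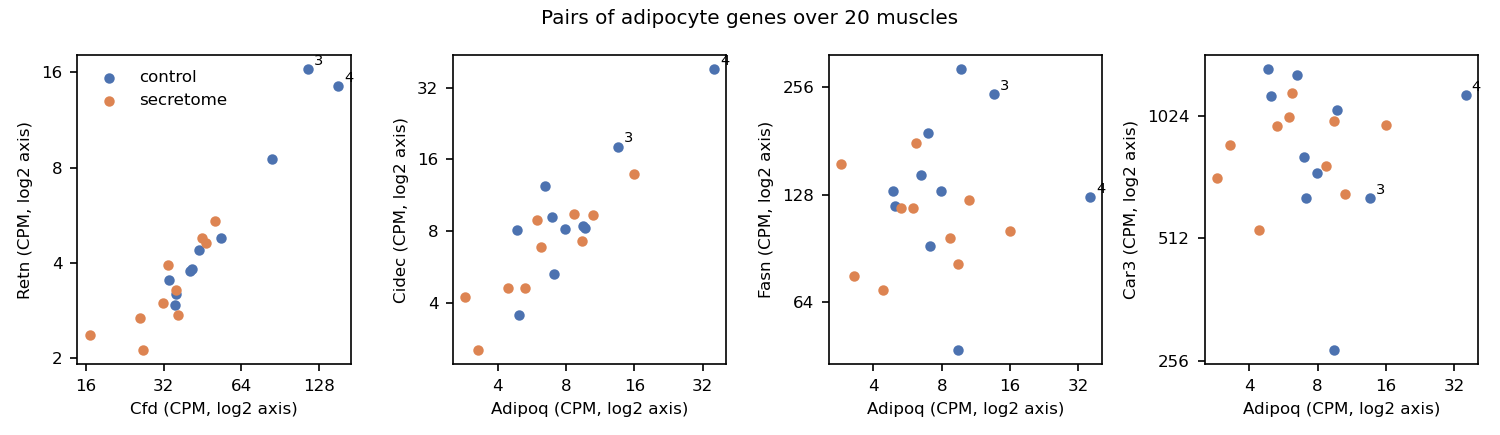
CPM of 4 pairs of genes on log2 axes, with 1 point for each of the 20 muscles, coloured by treatment, and controls 3 and 4 numbered. Retn rises with Cfd and Cidec with Adipoq over the whole range, also without the numbered muscles, whereas Fasn and Car3 show little relation to Adipoq.

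Part of this covariation came with controls 3 and 4. Without both of them 16 of the 45 pairs passed, 15 of them among the 28, whose median r was then 0.563. Without secretome-treated muscle 2, the lowest muscle for 6 of the 10 genes, 20 pairs passed, and without control 4 alone 22. Within the controls 18 pairs passed and within the secretome-treated muscles 14, each over 10 muscles. Within libraries 6 to 15, also 10 muscles, 1 pair passed, Cfd with Retn, while the median r of the 28 pairs was 0.658.

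Genes outside the 10 whose pattern was closest differed by gene. For Adipoq they were Ifi27l2a, Prkar2b, Tmem45b, Sncg and Cd1d1, with r from 0.824 to 0.892 over 20 muscles and from 0.678 to 0.839 without controls 3 and 4. Prkar2b encodes a regulatory subunit of protein kinase A and Sncg encodes gamma-synuclein. For Fabp4 they were Acvr1c (an activin receptor), Prkar2b, Slc16a7, Ifi27l2a and Car5b, with r from 0.795 to 0.848. For Fasn they were Sh2b2, Thrsp, Acly, H2-K1 and Pgd, with r from 0.813 to 0.849. Acly makes cytosolic acetyl-CoA, Pgd makes NADPH and Thrsp is a lipogenic nuclear protein. Within libraries 6 to 15 the r of Fasn with Thrsp was 0.914 and with Acly 0.901. For Car3 they were Prepl, Gm35330, Gm43581, Alkbh3 and Trdc, with r from 0.744 to 0.799. These values are descriptions, chosen as the highest of 14470.

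Lists of genes of other kinds are set beside the 10 by the median of their r with a member, over the 20 muscles. Of 27 tested adipocyte genes outside the 10, the median r with Adipoq was 0.461, against 0.0063 over all tested genes, and it was 0.272 without controls 3 and 4 and 0.492 within libraries 6 to 15. The closest in that list were Aoc3 (an amine oxidase of the adipocyte surface) at 0.812 and Cyp2e1 at 0.772, and the closest to Cfd was Cebpa, at 0.915. Without controls 3 and 4 these values were 0.590, 0.619 and 0.866. Plin4, an adipocyte lipid droplet gene that muscle also expresses, had an r of -0.15 with Adipoq. Of 17 genes of lipogenesis 5 had an r above 0.5 with Fasn, Thrsp and Acly among them, as did 5.00% of all tested genes, and the median was -0.05, or 0.248 within libraries 6 to 15. Of 16 endothelial genes the median r with Fabp4 was 0.26, led by Emcn at 0.727 and Ly6c1 at 0.595, and within libraries 6 to 15 the median was 0.588. Of 11 slow fibre genes the median r with Car3 was -0.08 over the 20 muscles, but 0.471 within libraries 6 to 15, where it was positive for all 11.

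Genes of macrophages varied with some of the adipocyte genes. The median r of the 12 macrophage genes was 0.683 with Cfd, 0.645 with Retn, 0.589 with Adipoq and with Cidec, 0.547 with Scd1 and 0.490 with Plin1, against 0.358 with Fabp4, 0.336 with Lep, 0.308 with Fasn and -0.06 with Car3. Within libraries 6 to 15 it was 0.643 with Cfd and 0.719 with Retn, 0.471 with Adipoq, 0.160 with Scd1 and 0.0462 with Fabp4. Without controls 3 and 4 it was 0.506 with Cfd, 0.411 with Adipoq, 0.308 with Scd1 and 0.182 with Plin1. Over 20 muscles, 8 of the 12 had an r above 0.5 with Cfd, as did 5.59% of all tested genes. C1qb, a chain of complement C1q, was the highest of the 12, at 0.867 with Cfd over 20 muscles and 0.916 within libraries 6 to 15. By contrast, Cd68 had 0.198 and -0.294 with Cfd, and Mertk 0.0819 and -0.0203. The summed macrophage level ranged from 96.7 through a median of 141 to 284 CPM in controls and from 63.6 through 90.4 to 214 CPM after secretome. Control 3 was the highest and control 4 the second of the 20 muscles in it, and 4 of the 12 genes were highest in control 3 and 5 in control 4. Of the 12 genes, Fcgr1 was at 0 in 1 muscle and the others in none. The 12 genes of fibroadipogenic progenitors, the mesenchymal cells of muscle that can form adipocytes, had a median r of 0.495 with Adipoq, 0.270 without controls 3 and 4 and 0.258 within libraries 6 to 15, and controls 4 and 3 ranked 2 and 3 in their sum. The part of these cell types in the covariation was not tested.

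The level of all 10 genes was lower on average in secretome-treated muscle, but none of the 10 passed the 5% false discovery rate across all genes tested (edgeR quasi-likelihood test, Benjamini-Hochberg adjustment), against 0.00691% of tested genes, which was 1 gene. At an unadjusted p under 0.05, 2 of the 10 were lower, against 9.21% of tested genes, and 0 were higher. DESeq2 also called 0 of the 10, against 1.25% of the genes it adjusted. The log2 fold changes of the 10 genes (secretome minus control) had a median of -0.51, against -0.03 over all tested genes, and 55.9% of tested genes were below 0. Since the genes varied together, the 10 are not 10 separate observations.

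Among the secreted factors, Retn had the log2 fold change farthest from 0, -0.91 ± 0.32 (SE; p = 0.00864, adjusted p = 0.197). Cfd followed with -0.87 ± 0.28 (p = 0.00585, adjusted p = 0.180), a mean of 34.9 ± 10.5 CPM (SD, n = 10) against 63.6 ± 40.8 CPM in controls. DESeq2 gave Cfd an adjusted p of 0.0672 and Retn 0.1001. Over the 20 refits with DESeq2 that each left out 1 muscle, Cfd passed in 6, with adjusted p from 0.0359 to 0.208. Adipoq had -0.56 ± 0.36 (adjusted p = 0.453) and Lep -0.46 ± 0.56 (adjusted p = 0.710).

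Among the others, Cidec and Plin1 had log2 fold changes of -0.74 ± 0.36 and -0.68 ± 0.33 (adjusted p = 0.327 and 0.318 with edgeR), at unadjusted p = 0.0548 and 0.0503. Scd1 had -0.47 ± 0.31 (adjusted p = 0.460), Fasn -0.44 ± 0.24 (adjusted p = 0.385) and Fabp4 -0.25 ± 0.19 (adjusted p = 0.516). Car3, the most abundant, had -0.07 ± 0.21 (adjusted p = 0.891), with 867.5 ± 192 CPM against 910 ± 342 CPM in controls. The sign of Car3 changed with the setting: it was positive with voom, with a term for 3 library ranges and within libraries 6 to 15. Standard errors were 0.19 to 0.56 on the log2 scale. At its own standard error of 0.36, the fold change of Adipoq could not be separated from the spread between mice.

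Single controls carried much of these values. Without control 4 the log2 fold change of Adipoq was -0.12, that of Cidec -0.34, of Plin1 -0.40 and of Fabp4 -0.04. Without control 3 that of Retn was -0.65 and that of Scd1 -0.26, and without control 9 that of Fasn was -0.29.

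Without both controls 3 and 4, a choice made after the data were seen, the log2 fold changes moved toward 0. Cfd was then -0.40 ± 0.20 (p = 0.0578), Fasn -0.36 ± 0.26, Retn -0.32 ± 0.22, Cidec -0.14 ± 0.27 and Plin1 -0.14 ± 0.24 (edgeR). Adipoq was 0.01 ± 0.27, Scd1 0.05 ± 0.23 and Lep 0.16 ± 0.54, above 0, and Fabp4 -0.03 ± 0.14 and Car3 -0.07 ± 0.22. No member then had an unadjusted p under 0.05, against 10.2% of tested genes. Of the 10, 7 were below 0, and the share of all tested genes below 0 was not computed without these controls. The median of the 10 was -0.11, against -0.02 over all tested genes. Fasn and Car3 were thus the members whose values moved least when those muscles were left out.

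**Figure D5:**
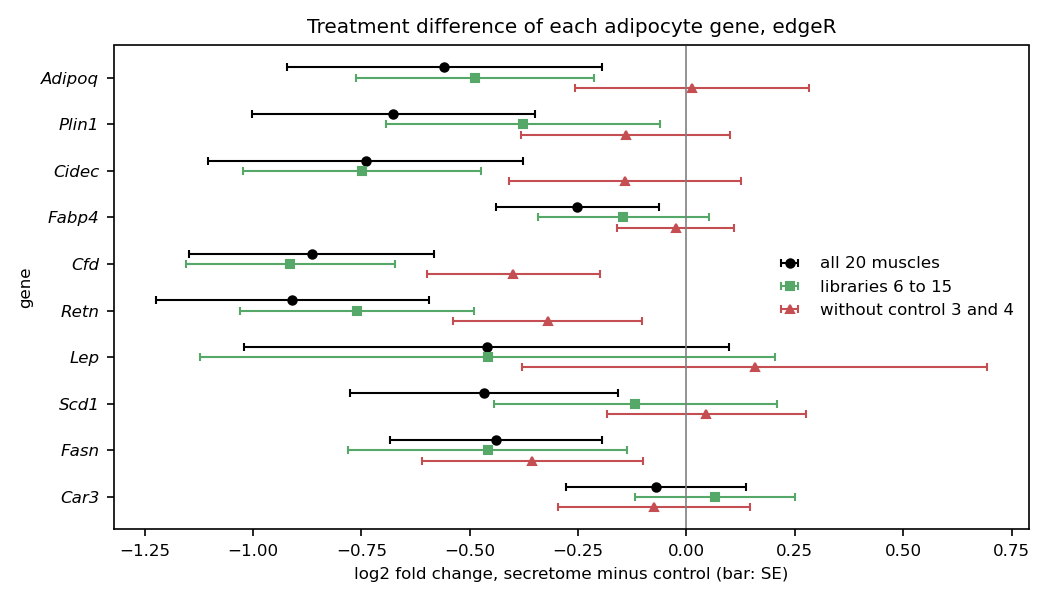
Log2 fold change of each gene, secretome minus control (horizontal axis, bars are the SE from edgeR), over all 20 muscles (circles), within libraries 6 to 15 (squares) and without controls 3 and 4 (triangles). Circles and squares lie below 0 for all but the square of Car3, and the triangles lie nearer to 0 for all but Car3.

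Within libraries 6 to 15, which hold neither control 3 nor control 4, 9 of the 10 genes were lower in secretome-treated muscle. The median log2 fold change of the 10 was -0.46, against -0.0135 over all tested genes. The share of all tested genes below 0 was not computed for these libraries. Cfd was 35.9 through 41.1 to 84.4 CPM in the 5 controls and 16.6 through 26.7 to 33.2 CPM in the 5 secretome-treated muscles. Every secretome-treated muscle of these libraries thus lay below every control of these libraries for Cfd, as for 1.09% of tested genes. The log2 fold change of Cfd was -0.91 ± 0.24 (edgeR, p = 0.00256, adjusted p = 0.401). The secretome-treated muscles of libraries 16 to 20, at 35.8 to 50.7 CPM, all lay above those 5 and overlapped the controls given here. Among secretome-treated muscles Cfd was thus also separated by library range, and the cause was not tested. No other gene of the 10 was separated by treatment within libraries 6 to 15.

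Retn had -0.76 ± 0.27 (p = 0.0133, adjusted p = 0.449) and Cidec -0.75 ± 0.27 (p = 0.0169, adjusted p = 0.453) within these libraries. The others were -0.49 ± 0.27 for Adipoq, -0.46 ± 0.32 for Fasn, -0.46 ± 0.66 for Lep, -0.38 ± 0.32 for Plin1, -0.15 ± 0.20 for Fabp4, -0.12 ± 0.33 for Scd1 and 0.07 ± 0.18 for Car3. Unadjusted, 3 of the 10 were lower at p under 0.05, against 4.88% of tested genes, and none passed the false discovery rate with edgeR, against 0% of tested genes. With DESeq2, Cfd alone of the 10 was called, at an adjusted p just under the threshold, against 0.239% of the genes adjusted. The treatment difference within libraries 6 to 15 was set against that between libraries 1 to 5 and 16 to 20 by an interaction term. None of the 10 genes differed past the false discovery rate, against 0.0553% of tested genes, with unadjusted p from 0.345 for Scd1 to 0.993 for Lep.

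The other lists are given for the same comparison, as counts and medians. Of the 27 other adipocyte genes, 0 passed the 5% false discovery rate in edgeR, 6 were lower and 0 higher at an unadjusted p under 0.05, and their median log2 fold change was -0.34, or -0.05 without controls 3 and 4 and -0.37 within libraries 6 to 15, where 6 also had p under 0.05. The smallest p values were those of Adrb3, the adipocyte beta-adrenergic receptor, at -1.28 ± 0.43 (adjusted p = 0.189) and of Cebpa at -0.67 ± 0.25 (adjusted p = 0.213). For Adrb3, controls 3 and 4 had 8.27 and 7.29 CPM against 1.20 ± 0.51 CPM in secretome-treated muscle, and its log2 fold change without them was -0.51. Of the 17 lipogenesis genes 0 passed in edgeR, 4 were lower and 1 higher at p under 0.05, with a median of -0.05. Fads2 and Fads1, fatty acid desaturases, had -0.77 ± 0.21 (adjusted p = 0.136) and -0.53 ± 0.17 (adjusted p = 0.177), and Fads2 passed with DESeq2 (adjusted p = 0.0450).

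Of the 12 macrophage genes 0 passed in edgeR, and 6 were lower and 0 higher at p under 0.05, against 9.21% of tested genes lower. The median was -0.48, or -0.20 without controls 3 and 4. Within libraries 6 to 15 it was -0.75, all 12 were lower and 7 had p under 0.05, against 4.88% of tested genes lower at that p. Csf1r, the receptor of macrophage colony-stimulating factor, had -0.76 ± 0.22 (adjusted p = 0.150) and Adgre1, which encodes F4/80, -0.82 ± 0.24 (adjusted p = 0.153), and DESeq2 called Csf1r (adjusted p = 0.0455). Of 12 progenitor genes 1 was lower at p under 0.05 (median -0.38) and of 16 endothelial genes 2 (median -0.15). Of 11 slow fibre genes 0 were (median -0.41). Within libraries 6 to 15 all 11 were lower, with a median of -2.13, and 4 of them at p under 0.05, against 4.88% of tested genes. Some of these genes were near the floor in some muscles and high in others. Counts of Myh7 ran from 0 to 4544, with 40.2 ± 76.9 CPM in controls and 26.0 ± 66.6 CPM after secretome (SD, n = 10). The part of this difference in fibre genes, in the same muscles that gave the values of Cfd, Retn and Cidec above, was not tested. Of 6 tested brown adipocyte genes 1 was lower at p under 0.05 (median -0.04). Medians were 0.07 for 12 fast fibre genes and for 10 myofibre genes, 0.02 for 10 genes that respond to insulin or fasting (-0.36 within libraries 6 to 15, with 9 of 10 lower), -0.18 for 6 genes of blood and -0.22 for 6 Schwann cell genes. Of the 10 lymphocyte genes 2 were tested, Jchain at -2.96 ± 0.71 and Ighm at -0.98 ± 0.36 (adjusted p = 0.109 and 0.213), and DESeq2 called Jchain (adjusted p = 0.00966).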

How the data were processed

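RNA was sequenced from 20 injected quadriceps, 1 library per mouse, 10 control and 10 secretome-treated, grouped by the sample titles and descriptions. Per the labels, stranded libraries were sequenced as 150-base pairs. The authors deposited whole-number counts per gene without normalization. The submitters' processing notes name cutadapt 1.16, STAR 2.7.9a, featureCounts 1.6.3, DESeq2 1.34.0 and the build GRCm39, while the strand setting and annotation are not given in the sources used here. The study's methods give 0.4% secretome in saline for its longer experiment.

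The 10 genes and all lists were chosen with earlier results of these data known. Identifiers were matched to symbols through GENCODE M21 (GRCm38), whose exon lengths were also used. In this annotation no other gene shares exon bases with the 10. Counts were filtered with filterByExpr and scaled with TMM in edgeR 4.0.16 (R 4.3.3). The robust quasi-likelihood test was fitted to all 14471 tested genes with treatment as its term, and p-values were adjusted with Benjamini-Hochberg over them. Standard errors were derived from each log2 fold change and its F statistic. Correlations used log2 CPM with a prior count of 2. The genes named are the 10, the 2 genes of a list with the smallest p or the highest r, and the 5 genes closest to Adipoq, Fabp4, Fasn and Car3. Plin4, Cd68, Mertk, Jchain, Ighm and Myh7 were named after their values were seen. Alternatives were DESeq2 1.42.0, RLE scaling, no filter on counts, voom (limma 3.58.1) with quality weights, blocks by replicate number, terms for library range, a 10% false discovery rate and muscles left out. The test was checked on simulated counts.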

Additional observations from a re-analysis of the deposited data

Results flagged for a closer look

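In each group of 10 muscles, the gap between the highest or lowest muscle and its nearest neighbour was divided by the range of log2 CPM, and a share above Dixon's 95% critical value for 10 samples marked a muscle far from the others. Of 20 groups examined, 3 held such a muscle, where chance gives about 1 in 20. Control 4 was high for Fabp4, with a share of 0.588, and for Adipoq, with a share of 0.489. Control 5 was low for Car3, with a share of 0.541. Controls 3 and 4 together stood apart for Scd1, where this measure, which looks at 1 muscle at a time, gave no flag. The cause was not tested for any of the 3.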

How the results depend on the processing

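The number of the 10 adipocyte genes past the 5% false discovery rate was 0 under every alternative except DESeq2 with a muscle left out, where it ranged from 0 to 1 (Cfd, without control 1, 5, 7, 8 or 10 or secretome-treated muscle 8), and DESeq2 within libraries 6 to 15, where it was 1 (Cfd). Of 300 recomputed log2 fold changes of the 10 genes, which do not include those refits, 289 kept their sign and their side of the threshold and 11 changed sign. Without controls 3 and 4 the sign changed for Adipoq (0.0132 with edgeR and 0.0244 with DESeq2), Lep (0.157 and 0.180) and Scd1 (0.0462 and 0.0572). Car3 changed sign with a term for 3 library ranges (0.0532), with voom (0.134) and within libraries 6 to 15 (0.0668). With 1 muscle left out Lep ranged from -0.774 to 0.0332, positive without control 4, and Car3 from -0.178 to 0.00736, positive without control 1. All genes past the threshold numbered 1, and 0 without controls 3 and 4, with the 3 ranges or within libraries 6 to 15, 3 with voom or at a 10% rate, 216 with DESeq2 and 21 with DESeq2 without controls 3 and 4. With 1 muscle left out they numbered 0 to 13, the highest without control 5. With a block for each replicate number, 0 genes passed and 0 of the 10. Deviations of muscles with the same number correlated at -0.24 to 0.221, above 0.1 in 2 of 10 pairs, so the numbers were not taken to pair the mice. Of the 45 gene pairs 31 passed, and 20 with Spearman's rho, 1 within libraries 6 to 15, 18 in controls, 14 in secretome-treated muscle, 16 without controls 3 and 4 and 20 to 32 with 1 muscle left out. The number of other listed genes past the threshold was 0, 7 with DESeq2 (Fads2, Csf1r and Jchain, and genes not tested by edgeR) and 1 with DESeq2 without controls 3 and 4. The 14 other genes named from the adipocyte, lipogenesis, endothelial, macrophage, progenitor, slow fibre and brown adipocyte lists by their p kept their sign in all 420 refits, and Fads2 and Csf1r passed with DESeq2. All 10 genes had an SD above that of the median gene in each alternative except without control 4 or without controls 3 and 4, where 9 did. Leaving out libraries leaves fewer muscles to test. The cause of the other changes was not tested. Depth limits Lep most.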
